A study of Mus musculus with 6 samples.

Results

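The MHC class II genes examined here were H2-Aa, H2-Ab1, H2-Eb1, Cd74, H2-DMa, H2-DMb2, H2-Oa, H2-Ob and Ciita. They are given by name, in a rule that holds no measured value, and all 9 were found among the 14125 genes of the deposited matrix. They were followed across the cell types that the authors had annotated, across lymph nodes and genotypes, and in T cells with and without a transcript of the B cell gene Cd79a.

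The series measured single cells from the lymph nodes of 7 pregnant mice by droplet sequencing with a 3′ kit that counts unique molecular identifiers (UMIs), each marking 1 captured transcript. Of the dams, 4 carried the Aire-DTR transgene (numbered 8, 36, 4 and 7), while 6, 97 and 1 were the 3 WT dams. Aire-DTR mice carry the diphtheria toxin receptor on cells that use the promoter of Aire, so that toxin removes those cells. All 7 dams, WT included, were bred to BALB/c males, were given diphtheria toxin (DT) through day 9 of gestation, from its start, and were sampled at E9.5. Uterine-draining (udLN) and brachial (brLN) nodes were taken from each dam. Cells carried hashtags and were loaded in 3 pools: mice 8 and 6 in pool 1, mice 36 and 97 in pool 2, and mice 4, 7 and 1 in pool LN. The deposited cell table gives resorption as the pregnancy phenotype of mouse 4 and growth restriction (IUGR) for the other 3 Aire-DTR mice. The sources used here do not give the strain and age of the dams.

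The matrix had 9427 rows, of which 2127, all from well 1 of pool LN, repeated another row with identical counts and labels. Each such cell was counted once, which left 7300 cells and 22833288 UMIs, with a median of 2910 UMIs per cell. Keeping the repeated rows gave levels 0.981 to 1.01 times those reported for the 9 genes in B cells and 0.933 to 1.04 times in T cells, and changed no count of class II genes past a threshold. A further 419 cells had a 16-base barcode that also occurred in another well, with different counts, and were kept. The labels give the sort as CD45+ CD3+ and the series design as CD45+, yet 2267 cells were annotated as B cells. Those cells carried all 7 B cell markers examined, with Cd79a at 4711 CPM. CPM here is the UMIs of a gene per 1000000 UMIs of the cells summed. WT mouse 97 gave few udLN cells, 20 B cells and 25 CD4 and CD8 T cells. Aire itself had 5 UMIs in 4808 cells of Aire-DTR mice and 3 UMIs in 2492 cells of WT mice, too few to check the depletion in these cells.

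Class II molecules are pairs of an alpha and a beta chain that hold peptides from engulfed proteins and show them to CD4 T cells. H2-Aa and H2-Ab1 encode the chains of the I-A molecule and H2-Eb1 encodes the beta chain of I-E. Cd74, the invariant chain, blocks the peptide groove of new class II molecules and carries them to endosomes, where H2-DM (H2-DMa with H2-DMb2 or its close copy H2-DMb1) exchanges the remnant of Cd74 for peptide, and H2-DO (H2-Oa with H2-Ob) restrains H2-DM. Ciita is the coactivator that turns these genes on, recruited by RFX, CREB and NF-Y proteins bound to a conserved promoter module with an X box and a Y box. B cells, dendritic cells and macrophages are the known class II expressing cells of a lymph node, and mouse T cells are known for expressing little or none.

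In GRCm38, 7 of the 9 genes lie on chromosome 17 in the MHC. In order they are H2-Oa at chr17:34092340-34095234, H2-DMa at chr17:34119541-34139101, H2-DMb2 at chr17:34143307-34151555, H2-Ob at chr17:34238903-34254414, H2-Ab1 at chr17:34257689-34269419, H2-Aa at chr17:34282744-34287823 on the minus strand, and H2-Eb1 at chr17:34305867-34316674. Ciita lies at chr16:10480059-10528418, and Cd74 is the other gene outside the MHC. All 9 are annotated as protein coding.

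The promoters are shown because the genes were high in the same cells and are known to share this control module. RefSeq promoters (GRCm38.p6, 250 bases before to 50 after each start site) were at hand for 6 of the genes on chromosome 17, in 7 entries. They were searched on both strands for GCAAC, the core of the X box, and GATTGG, the core of the Y box. In 4 genes GCAAC was followed, on the strand of the gene, by GATTGG with 10 to 40 bases between them. The windows below run 5′ to 3′ on the strand of the gene, with both cores in capitals.
H2-Oa, chr17:34092283-34092360, plus strand: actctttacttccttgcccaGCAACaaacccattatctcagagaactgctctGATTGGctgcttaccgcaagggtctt
H2-Ob, chr17:34238798-34238872, plus strand: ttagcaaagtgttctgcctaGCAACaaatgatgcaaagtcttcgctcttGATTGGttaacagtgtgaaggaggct
H2-Aa, chr17:34287847-34287924, minus strand: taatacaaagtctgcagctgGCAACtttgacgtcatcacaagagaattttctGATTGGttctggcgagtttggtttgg
H2-Eb1, chr17:34305756-34305832, plus strand: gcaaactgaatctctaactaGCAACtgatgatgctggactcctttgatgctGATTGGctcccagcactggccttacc

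The cores were 27 bases apart in H2-Oa and H2-Aa, 24 in H2-Ob and 26 in H2-Eb1. The Y core ended 38 bases before the start site of H2-Oa, 43 before that of H2-Aa, 52 before that of H2-Ob and 54 before that of H2-Eb1. Of 32851 promoters of this length, 35.2% held GCAAC, 16.1% held GATTGG and 0.502% held the pair in that order and spacing. The H2-DMa entries held 1 core each and the H2-DMb2 entry held GATTGG alone. These entries, chr17:34122582-34122881 and chr17:34125268-34125567 for H2-DMa and chr17:34144999-34145298 for H2-DMb2, lay inside the gene positions given above. Sequence before the first base of those 2 genes was not searched, so a missing pair there is not shown. H2-Ab1 and Ciita had no entry in the table. A match is a match of letters only and does not show that a factor was bound.

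All 9 genes were highest in B cells, and for each of them the lowest B cell value of any mouse lay above the highest value of every other type. These levels describe types that the authors named from the same cells, so no test was made of 1 type against another. In B cells the 9 genes together took 53017 ± 1943 CPM (SD, n = 7 mice), from 50513 in WT mouse 1 to 55118 in WT mouse 97. The spread over mice was small beside the level, and Aire-DTR and WT mice were interleaved.

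Cd74, the invariant chain, gave most of the class II UMIs of B cells. Its lowest, median and highest values over the 7 mice were 29663, 31213 and 33502 CPM. For the peptide-holding chains the corresponding values were 7686, 8004 and 8445 CPM for H2-Aa. H2-Ab1, its partner chain, ran at 4125, 4326 and 4631 CPM. H2-Eb1 ran at 5298, 5635 and 5722 CPM, close to its median in most mice. H2-Eb2, a related gene, had 175 ± 18.8 CPM in B cells (SD, n = 7).

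The genes of peptide loading and Ciita had fewer UMIs in B cells. H2-DMa had 704 ± 33.5 CPM (SD, n = 7, 647 to 737) and H2-DMb2 1215 ± 72.0 CPM (1069 to 1285). H2-Oa had 585 ± 27.1 CPM (556 to 618) and H2-Ob 698 ± 37.0 CPM (656 to 766). Ciita, the coactivator, was lowest at 210 ± 24.5 CPM (178 to 252). Because UMIs mark transcript 3′ ends, these values were not divided by gene length.

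**Figure D1:**
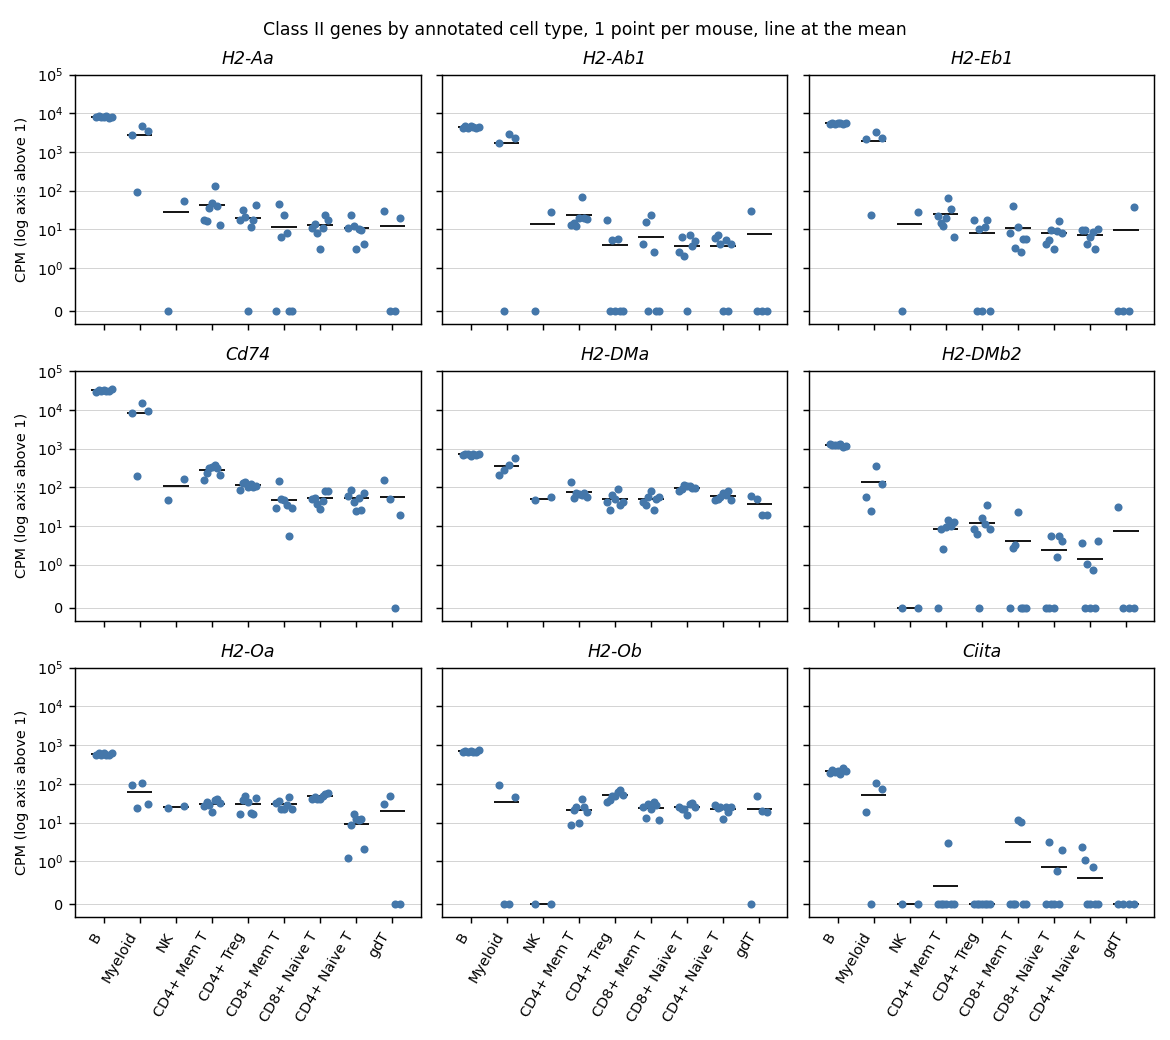
CPM of each class II gene (log axis above 1) by annotated cell type; each point is 1 mouse with at least 10 cells of the type, both nodes summed, and the line is the mean. The 7 B cell points of each gene sit above every other point, from 178 CPM for Ciita to 33502 CPM for Cd74, while H2-DMa, H2-Oa and H2-Ob keep a low level in most T cell types.

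Cells annotated as Myeloid came next for the summed genes, but their mice differed widely. Only 4 mice had at least 10 such cells. Cd74 was 14624 CPM in Aire-DTR mouse 4, 9227 in WT mouse 97, 8238 in WT mouse 1 and 190 in Aire-DTR mouse 36. Over all 73 cells this type was mixed. Its summed neutrophil markers (3 genes) reached 40537 CPM, its 4 globin genes 68799 CPM and its 6 monocyte and macrophage markers 4826 CPM. Its 4 T cell markers reached 1243 CPM, its 7 B cell markers 949 CPM and its 7 dendritic cell markers 503 CPM. None of these markers was at 0. The dendritic sum was not specific to Myeloid cells, where Ccr7 gave 177 CPM of it. For the same genes CD4+ Naive T cells reached 621 CPM, of which Ccr7 gave 617, and the remaining types were lower than Myeloid cells. The class II UMIs sat in few cells: 21 of the 73 (28.8%) held 10 or more and carried 99.5% of the 3557 class II UMIs of the type. The spread between mice was therefore a spread over a handful of cells, and which myeloid cells a mouse contributed was not tested.

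H2-DM composition differed between these 2 types as a description. H2-DMb2 made up 88.1% of the UMIs of the H2-DMb pair in B cells (86.4% to 89.8% over 7 mice), against 30.8% in Myeloid cells (95% Wilson interval 22.9% to 40.1%; 9.09% to 56.7% over 4 mice). H2-DMb1, the other copy, had 162 ± 16.04 CPM in B cells (SD, n = 7) and 321 ± 194 CPM in Myeloid cells (SD, n = 4). The 2 copies are near identical, and the sources used here do not say how the authors' counting split their reads. H2-DO relative to H2-DM also differed: H2-Oa and H2-Ob together had 1.80 UMIs per UMI of H2-DMa in B cells (1.67 to 2.05 over mice) and 0.305 in Myeloid cells (0.0833 to 0.909 over 4 mice; 82 UMIs of H2-DMa, 16 of H2-Oa and 9 of H2-Ob in all, so counting error is large).

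Among T cell types the low class II signal was not even. CD4+ Mem T cells had the highest sum, 501 ± 152 CPM (SD, n = 7, 362 to 801), and CD4+ Naive T cells the lowest, 166 ± 24.3 CPM (130 to 208). CD4+ Treg cells had 286 ± 37.0 CPM, CD8+ Naive T cells 251 ± 41.8 CPM and CD8+ Mem T cells 187 ± 79.3 CPM. The 73 gdT cells had 169 CPM summed. The 54 NK cells had 1403 CPM summed, but 2 of them carried 85.4% of their 301 class II UMIs, and the 2 mice with at least 10 NK cells had 115 and 356 CPM. Neighbours in this order overlapped between mice, except that CD4+ Mem T lay above CD4+ Treg. That separation rested on few cells: CD4+ Mem T had 372 CPM (244 to 522) without its 14 cells with a Cd79a UMI and 289 CPM (197 to 377) without the 4 further cells of 10 or more class II UMIs, against 266 CPM (173 to 344) in CD4+ Treg without Cd79a, and overlapped it in both.

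Each gene had its own order among T cells. For Cd74 the order was CD4+ Mem T (275 ± 79.4 CPM, 153 to 379), CD4+ Treg (111 ± 17.6, 85.5 to 136), then CD8+ Naive T (53.2), CD4+ Naive T (51.3) and CD8+ Mem T (47.7), the last 3 overlapping. Without Cd79a cells Cd74 in CD4+ Mem T was 196 CPM (91.3 to 331), and 139 CPM (47.8 to 171) without the cells of 10 or more class II UMIs as well, overlapping CD4+ Treg at 103 CPM (51.9 to 144). For H2-DMa it began with CD8+ Naive T (98.4 ± 13.2, 78.1 to 115) and overlapped its neighbours below. H2-Oa was also highest in CD8+ Naive T (47.0 ± 7.77, 39.9 to 58.8) and lowest in CD4+ Naive T (9.19 ± 5.67, 1.19 to 16.4), with no overlap between those types. H2-Ob was highest in CD4+ Treg (50.1 ± 12.2, 34.2 to 68.0), above every mouse of CD4+ Naive T (22.8, 12.4 to 28.5), CD8+ Naive T (24.6, 15.3 to 31.6) and CD8+ Mem T (23.3, 11.3 to 34.0) and overlapping CD4+ Mem T (21.3, 8.76 to 40.8). The H2-DM and H2-DO chains were thus not highest in the T cell type in which Cd74 was highest.

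B cells were compared between Aire-DTR and WT dams within each node, with counts summed per mouse, to ask whether class II transcription in the main class II cell of the node followed the genotype. No member passed the test in either node. In brLN, Cd74 was 32984, 29035, 31215 and 33221 CPM in Aire-DTR mice 36, 4, 7 and 8, and 28867, 34346 and 33549 CPM in WT mice 1, 6 and 97. The groups overlapped. In udLN it was 30904, 32359, 30663 and 29915 CPM in the same Aire-DTR mice and 30923, 31999 and 32858 CPM in the WT mice, again overlapping. H2-Aa was 8529, 7701, 8186 and 8559 CPM in brLN of Aire-DTR mice against 7684, 8253 and 8012 CPM in WT mice.

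The log2 difference of Cd74, Aire-DTR minus WT, was -0.02 (SE 0.04, 95% interval -0.11 to 0.07, n = 4 and 3) in brLN and -0.03 (SE 0.05, -0.13 to 0.07) in udLN by edgeR's quasi-likelihood test with pool as a term. Across the 9 genes the differences ran from -0.07 to 0.13 in brLN and from -0.12 to 0.06 in udLN. Their medians were -0.02 and -0.03, beside -0.0018 and 0.01 over all genes tested. The count was 0 of 9 called in brLN, where 0.058% of 6899 genes were called, and 0 of 9 in udLN, where 0% of 4149 genes were called. At an unadjusted p under 0.05 the count was also 0 of 9 in both nodes, and DESeq2 called 0 in both. The intervals were narrowest for Cd74 and H2-Aa and widest for Ciita, -0.13 to 0.38 in brLN and -0.46 to 0.40 in udLN.

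H2-Oa in udLN was the 1 gene of the 9 whose groups did not overlap, where 5.64% of 4149 genes did not, against 0 of 9 in brLN, where 5.29% of 6899 genes did not. It was 547, 582, 547 and 558 CPM in Aire-DTR mice 36, 4, 7 and 8 and 595, 646 and 599 CPM in WT mice 1, 6 and 97. Every Aire-DTR mouse lay below every WT mouse there, but not in brLN (540 to 639 against 555 to 611 CPM). The log2 difference was -0.12 (SE 0.12, interval -0.38 to 0.13), and it did not pass the test (edgeR, Benjamini-Hochberg adjusted p = 0.999).

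**Figure D2:**
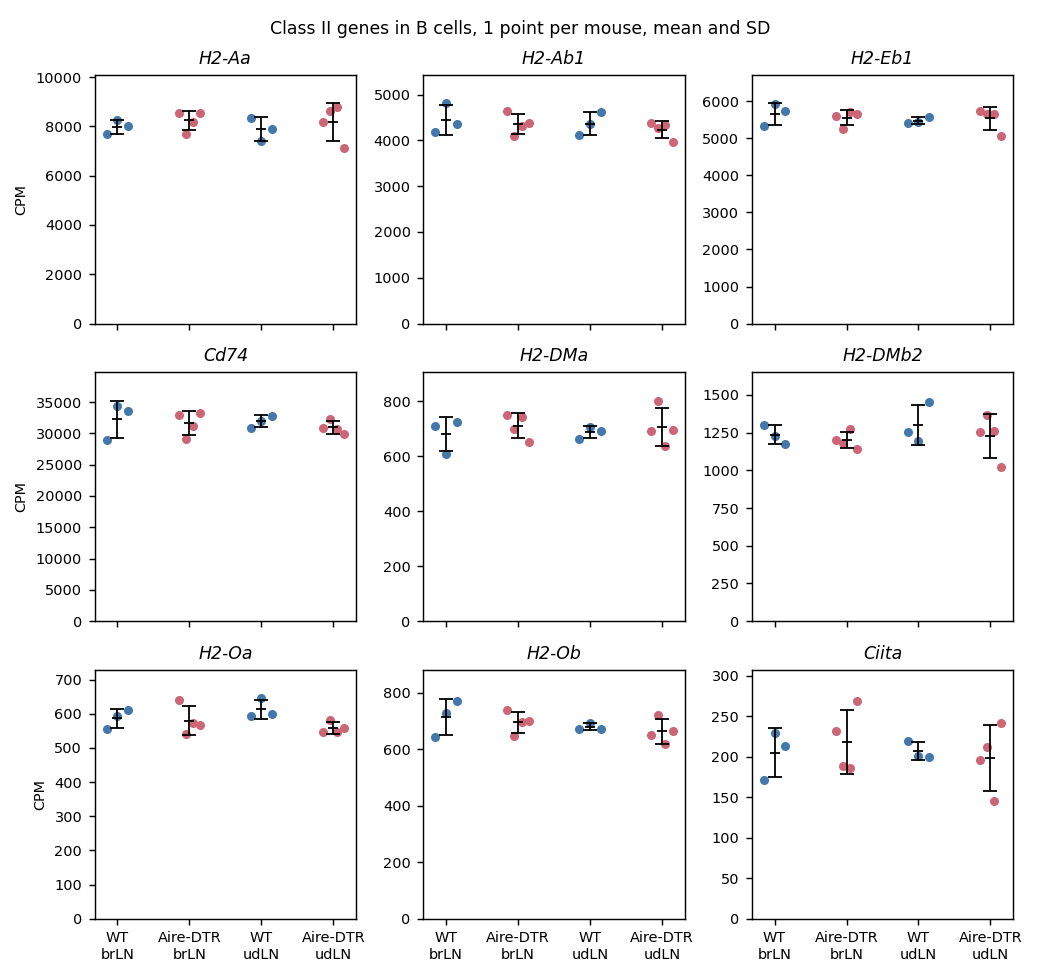
CPM of each class II gene in B cells by node and genotype; each point is 1 mouse (WT n = 3, Aire-DTR n = 4), with mean and SD, on axes that start at 0. The groups overlap in every panel except H2-Oa in udLN, where Aire-DTR mice span 547 to 582 CPM and WT mice 595 to 646 CPM; 5.64% of all genes tested there did not overlap.

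The nodes of 1 mouse were then set against each other, with mouse as a block. No class II gene of B cells differed between udLN and brLN past the threshold, 0 of 9 where 0.0479% of 4176 genes were called. The differences ran from -0.04 for H2-Ob to 0.05 for H2-DMb2, and Cd74 differed by -0.01 (SE 0.04, interval -0.09 to 0.07, n = 7 mice). The difference between nodes did not differ between genotypes past the threshold either, 0 of 9 where 0.0195% of 5135 genes were called, with values from -0.18 (Ciita, interval -0.66 to 0.31) to 0.07 (H2-Eb1). At an unadjusted p under 0.05 both counts were 0, and DESeq2 called 0.

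Some B cells carried T cell transcripts, and class II moved with that. UMIs of Cd3d, Cd3e or Cd3g were found in 209 of the 2267 B cells. In these cells, which had a median of 3801 UMIs against 2212.5 in the other 2058, the 9 genes were at 0.455 to 0.537 times their level in the others. Cd79a, no member, was at 0.475 times. The share of B cells with a Cd3 UMI ran from 0% to 15.9% over the mouse and node sums and was not aligned with genotype: 5.21% to 13.6% in brLN of Aire-DTR mice and 2.91% to 15.9% in brLN of WT mice. Without these cells the 4 B cell comparisons still called 0 of 9. WT mouse 97 then fell below 20 B cells in udLN, which left 2 WT mice there and took it out of the node comparisons.

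Turning to the 4702 CD4 and CD8 T cells without a Cd79a UMI, the 9 genes split into 2 levels when set against B cells of the same mice. H2-DMa reached 10.4% of its B cell level, H2-Oa 5.26% and H2-Ob 3.66%. The other 6 lay far lower, with H2-Aa at 0.156%, H2-Ab1 at 0.119%, H2-Eb1 at 0.148%, Cd74 at 0.222%, H2-DMb2 at 0.196% and Ciita at 0.425% (14 UMIs in all). Over the 7 mice the first 3 did not overlap the other 6. H2-DMa ran from 8.0% to 13.0% and H2-Ob from 2.38% to 4.47%, against 0.101% to 0.301% for Cd74, 0.0613% to 0.243% for H2-Aa and 0% to 1.048% for Ciita.

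Levels of B cell genes were set beside these. In the same T cells Ms4a1 stood at 0.179% of its B cell level, Igkc at 0.336% and Cd79b at 0.916%, while Ighm stood at 24.0%. The classical chains, Cd74 and H2-DMb2 thus lay near Ms4a1 and Igkc (0.119% to 0.222%), and H2-DMa, H2-Oa and H2-Ob lay above them and below Ighm. How much of the T cell signal was RNA from B cells was not tested.

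**Figure D3:**
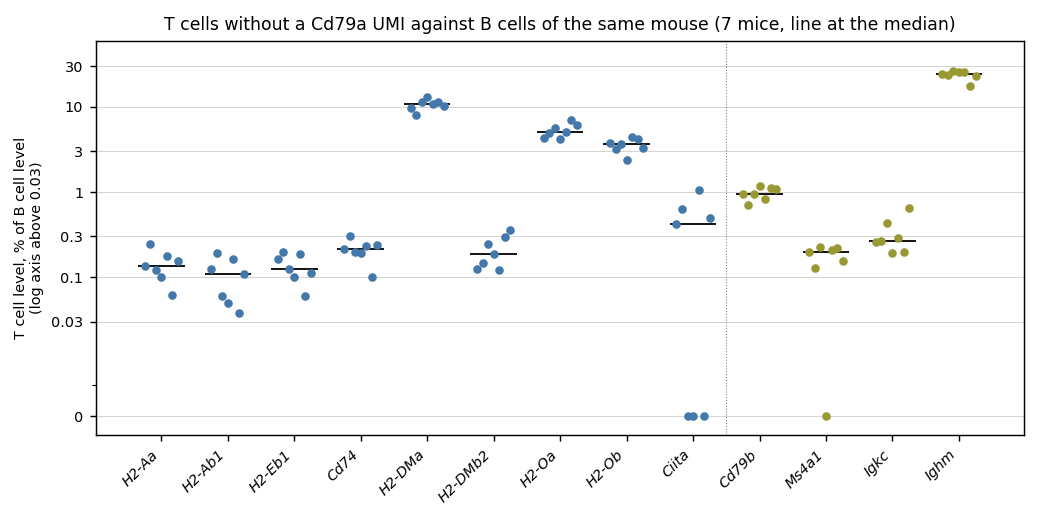
Level in T cells without a Cd79a UMI as a percentage of the level in B cells of the same mouse (log axis above 0.03), 1 point per mouse (n = 7), line at the median; class II genes in blue and B cell genes in olive, right of the dotted line. H2-DMa (8.0% to 13.0%), H2-Oa (4.25% to 6.98%) and H2-Ob (2.38% to 4.47%) sit above the other class II genes in every mouse.

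Shares of cells with a UMI, which depend on depth, were compared after thinning each cell to 1000 UMIs (54 of 4702 T cells and 60 of 2267 B cells were shallower and left out). Cd74 was then seen in 98.5% of B cells and 5.92% of T cells (95% Wilson interval 5.27% to 6.63%), against 98.8% and 15.9% unthinned. H2-DMa was seen in 51.7% of B cells and 6.71% of T cells (6.03% to 7.47%), against 78.8% and 19.7% unthinned. For H2-Oa the share in T cells was 2.32% and for Ciita 0.0645% (3 of 4648 cells), beside 0.172% for Ms4a1, a B cell gene that T cells should lack. Median depth was 2261 UMIs in B cells and 3228 in these T cells. The intervals of Cd74 and H2-DMa in T cells overlapped, although the level of Cd74 there as a share of its B cell level was far smaller. Intervals cover counting error only.

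Cell by cell, most T cells carried no class II UMI or few. B cells held a median of 130 UMIs of the 9 genes (quartiles 105 and 159, highest 452), 98.5% held 10 or more, and 12 held none. T cells without a Cd79a UMI held a median of 0, and 2558 of 4702 (54.4%) held none, while 809 held 2 or more. Only 6 of them held 10 or more, and these carried 5.58% of the 3639 class II UMIs. All 6 came from brLN: 2 were Th17, 2 were Act. Treg and 2 were CD8+ Mem T cells, with 11 to 74 class II UMIs, and 4 of the 6 had no UMI of the B cell genes examined.

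**Figure D4:**
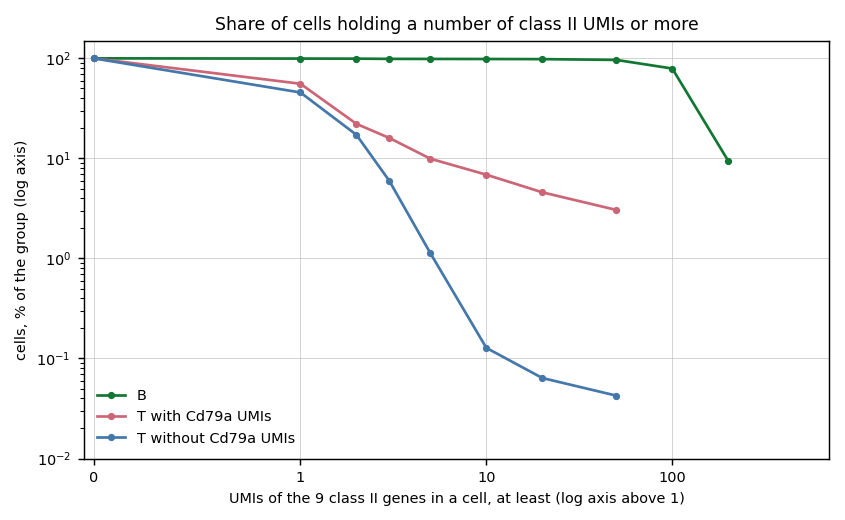
Percentage of cells (log axis) that held at least a given number of UMIs of the 9 class II genes (log axis above 1), for B cells (n = 2267), T cells with a Cd79a UMI (n = 131) and T cells without (n = 4702). At 10 UMIs the curves stand at 98.5%, 6.87% and 0.128%.

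Within the CD4 subsets that the authors named, again without Cd79a, Cd74 was highest in Act. Treg cells, at 339 CPM over 149 cells (226 to 409 over 6 mice), and in Th17 cells, at 268 CPM over 103 cells (88.7 to 819 over 4 mice). Tfh cells had 107 CPM, Resting Treg cells 92.4 CPM and Early Act. CD4 cells 82.2 CPM. Without the cells of 10 or more class II UMIs, Act. Treg stood at 308 CPM (113 to 348) and Th17 at 120 CPM (88.7 to 155), so the Th17 level rested on 2 cells. H2-Ob did not follow that order, at 47.8 CPM in Act. Treg, 48.3 CPM in Resting Treg and 25.6 CPM in Tfh cells. The summed level of the 3 B cell genes Cd79b, Ms4a1 and Igkc was 64.5 CPM in Act. Treg, 41.2 in Th17, 30.3 in Resting Treg, 20.9 in Early Act. CD4 and 9.32 in Tfh cells. Without the cells of 10 or more class II UMIs this sum was 53.8 CPM in Act. Treg and 40.1 CPM in Th17. Over all T cells without Cd79a, Cd79b gave most of it, 24.1 CPM beside 1.95 for Ms4a1 and 3.47 for Igkc. The part of this sum in the Cd74 order was not tested.

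The comparison of T cells without Cd79a between genotypes found no class II gene past the threshold. Cd74 in brLN was 109, 67.8, 78.9 and 37.2 CPM in Aire-DTR mice 36, 4, 7 and 8, and 53.9, 81.4 and 79.6 CPM in WT mice 1, 6 and 97. In udLN it was 65.6, 52.0, 50.5 and 24.9 CPM and 80.7, 32.8 and 82.0 CPM in the same order. Both sets overlapped, and mouse 8 was the lowest in each node. The log2 difference was 0.24 (SE 0.15, interval -0.06 to 0.54) in brLN and -0.57 (SE 0.20, -0.98 to -0.17) in udLN, with edgeR adjusted p of 0.958 and 0.944. The udLN difference turned to 0.65 when T cells with Cd79a were kept. Its unadjusted edgeR p was 0.0070, and in brLN 0 of the class II genes had an unadjusted p under 0.05. Of the 6 genes with enough counts in brLN 0 were called, beside 0.0348% of 8622 genes, and of the 4 in udLN 0, beside 0.0299% of 6700 genes. DESeq2 called 0 in both. The H2-DMa difference was -0.13 (interval -0.39 to 0.14) in brLN and 0.32 (-0.05 to 0.69) in udLN.

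Cd74 in the same T cells was lower in udLN than in brLN in 5 of the 7 mice, and higher in WT mice 1 and 97. The log2 difference, udLN minus brLN, was -0.40 (SE 0.13, interval -0.67 to -0.14, n = 7 mice), which did not pass the test (edgeR adjusted p = 0.291, unadjusted p = 0.0038). It was -0.19 without the T cells holding 10 or more class II UMIs, all of which came from brLN, and turned to 0.19 when T cells with Cd79a were kept. Without mouse 1 it was -0.64 and passed the test (edgeR adjusted p = 0.00619, against 0.00619 to 1 over all alternatives). H2-DMa, H2-Oa and H2-Ob differed by 0.14 (-0.07 to 0.34), -0.17 (-0.48 to 0.15) and 0.21 (-0.15 to 0.57). In all, 0 of 4 genes were called, beside 0.482% of 6641 genes.

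Whether that node difference differed between genotypes was tested as an interaction. For Cd74 it was -0.68 (SE 0.27, interval -1.22 to -0.13), not past the threshold (edgeR adjusted p = 0.927, unadjusted p = 0.0162), and it turned to 0.27 without WT mouse 1. With 5 genes tested, 0 were called, beside 0.0539% of 7427 genes, and DESeq2 called 0.

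T cells with a Cd79a UMI were few, 131 cells, and held 486 class II UMIs, against 3639 in the 4702 T cells without. In 7 of 7 mice H2-Aa was higher in them than in T cells without: 15.3, 98.3, 116, 110, 256, 803 and 71.1 CPM in mice 1, 36, 4, 6, 7, 8 and 97, against 10.7, 20.6, 9.86, 7.94, 14.9, 4.71 and 12.2 CPM. The sets overlapped only in that mouse 1 with Cd79a lay below mouse 36 without. Cd74 was 15.3, 491, 631, 221, 466, 3465 and 231 CPM in them and 31.4 to 97.8 CPM in the others, higher in every mouse but mouse 1. In mouse 1 the 16 cells with Cd79a held 1 Cd74 UMI and 1 H2-Aa UMI.

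The log2 difference, with minus without, was 3.62 for H2-Aa (SE 0.29, edgeR adjusted p = 4.18e-33) and 2.89 for Cd74 (SE 0.17, edgeR adjusted p = 8.0e-59), with mouse as a block. H2-Aa passed the low-count filter mainly through the sums with Cd79a, so its entry to the test depended on the group where it was high. Without mouse 36, which had its highest level in cells without Cd79a (20.6 CPM), it was not tested. H2-DMa differed by 0.08 (interval -0.46 to 0.63), H2-Oa by 0.04 (-0.82 to 0.89) and H2-Ob by 0.46 (-0.39 to 1.30), none past the threshold. So 2 of the 5 genes tested were called, beside 0.118% of 5101 genes. That share is 6 genes and includes these 2. Cd79a, whose difference the split itself fixes, was not taken out of the genes tested. The edgeR p-values do not reflect the spread of Cd74 over mice, 15.3 to 3465 CPM in T cells with Cd79a. An exact sign-flip permutation test over the 7 mice gave two-sided p = 0.0156 for H2-Aa and 0.0312 for Cd74. H2-Ab1 (7 of 7 mice higher, exact sign-flip permutation test over mice, two-sided p = 0.0156, the smallest 7 mice can give), H2-Eb1 and H2-DMb2 (6 of 7 mice, exact p = 0.0312) had too few counts for the fit. Their exact tests rest on few UMIs: H2-Ab1 with Cd79a was a single UMI in mice 1, 36 and 97 and 2 UMIs in mouse 6. DESeq2 gave 2.39 for Cd74 without a call (adjusted p = 1) and 3.43 for H2-Aa with one (adjusted p = 4.69e-04).

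The difference lay in few cells. Of the 131 cells with Cd79a, 9 held 10 or more class II UMIs, and these carried 77.8% of the 486 class II UMIs. Their median cell held 1. Without the cells of 10 or more, Cd74 differed by 0.11 and H2-Aa had too few counts to be tested, so 0 genes were called. Ms4a1 was at 10.9 CPM in T cells with Cd79a and 1.95 CPM in those without, and Igkc was at 26.2 and 3.47 CPM. Doublets of a T and a B cell, and their part in the result, were not tested.

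The cells with Cd79a were spread over nodes and genotypes at similar shares: 2.83% of T cells in brLN of Aire-DTR mice, 2.36% in brLN of WT mice, 2.98% in udLN of Aire-DTR mice and 2.36% in udLN of WT mice. Their class II sum was not as even, at 522, 467, 3023 and 244 CPM in that order, against 242, 222, 219 and 214 CPM in T cells without Cd79a. The high value of the udLN of Aire-DTR mice held 317 UMIs, with 5 cells of 10 or more UMIs. The udLN value of WT mice rested on 8 UMIs in 9 cells, and the lowest WT mouse had 0% of such cells there. Each value pooled the cells of its mice, and mouse 8 alone held 82 Cd74 UMIs in 8 cells with Cd79a, both nodes summed. These shares and sums were not tested between groups.

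T cells with CD8 UMIs (Cd8a or Cd8b1, no Cd4) were set against T cells with Cd4 UMIs, both without Cd79a, a comparison added after the levels by cell type had been seen. These are largely the cells that showed the levels by type, so the p-values here describe the same pattern and are no independent support for it. H2-Oa was higher in the 2346 CD8 cells than in the 935 Cd4 cells. It was 38.7, 41.5, 37.8, 35.2, 40.7, 50.8 and 52.5 CPM in CD8 cells of mice 1, 36, 4, 6, 7, 8 and 97, and 0, 25.7, 18.03, 14, 17.6, 26.2 and 17.7 CPM in Cd4 cells. The 2 sets did not overlap, as for 5.63% of 5964 genes, and the log2 difference was 1.404 (SE 0.22, edgeR adjusted p = 1.56e-06). H2-DMa was 69.4 to 101 CPM against 42.4 to 71.1 CPM, higher in CD8 cells of all 7 mice, by 0.69 (SE 0.13, edgeR adjusted p = 4.45e-05). Cd74 went the other way in all 7 mice, 17.8 to 80.9 CPM in CD8 cells against 51.3 to 134 CPM in Cd4 cells, by -0.61 (SE 0.13, edgeR adjusted p = 4.83e-04). H2-Ob, the partner of H2-Oa, differed by 0.36 and did not pass (edgeR adjusted p = 0.335). By type, again without Cd79a, H2-Oa was 47.1 CPM in CD8+ Naive T against 9.34 in CD4+ Naive T. It was 30.0 in CD8+ Mem T, 30.2 in CD4+ Mem T and 30.1 in CD4+ Treg, so its difference lay between naive types. H2-DMa was 99.3 against 58.2 CPM in naive types, but 49.1 in CD8+ Mem T, 72.2 in CD4+ Mem T and 46.0 in CD4+ Treg. Cd74 was 42.8 against 51.8 CPM in naive types, and 43.7 in CD8+ Mem T against 196 in CD4+ Mem T.

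Those 3 of 4 genes stood beside 15.7% of 5964 genes called, since these cells differ in many genes. Cd79b was also higher in CD8 cells, at 35.6 against 7.63 CPM, while Ms4a1 was at 1.60 and 1.99 CPM. Naive cells made up 82.0% of the CD8 cells and 71.1% of the Cd4 cells, median depth was 3570 and 3110 UMIs, and each side held 2 cells of 10 or more class II UMIs. The part of these in the differences was not tested.

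**Figure D5:**
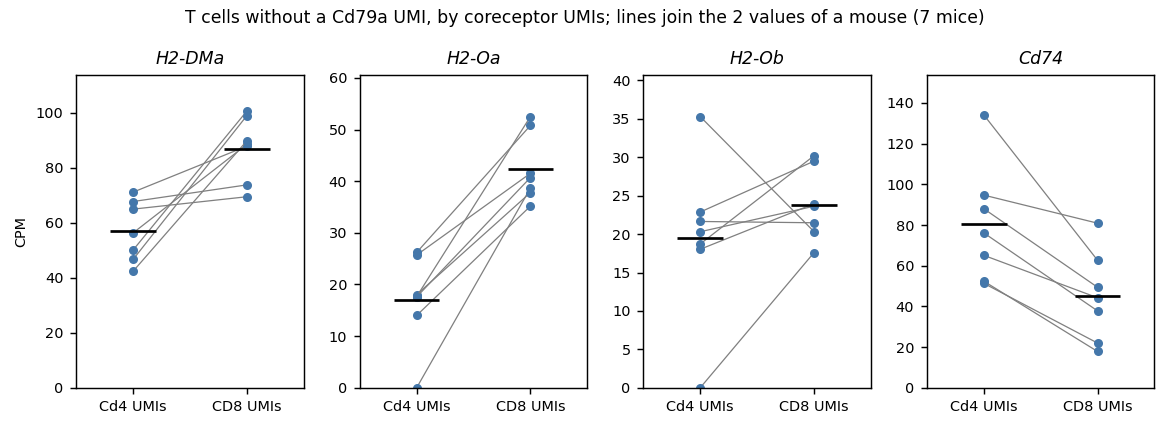
CPM of 4 class II genes in T cells without a Cd79a UMI, grouped by coreceptor UMIs; lines join the values of 1 mouse (n = 7) and bars mark the mean, on axes that start at 0. H2-Oa and H2-DMa are higher and Cd74 lower in CD8 cells of all 7 mice, while the lines of H2-Ob cross.

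Of 30 further genes of the class II pathway listed for comparison, 28 were in the matrix. They are the RFX, CREB and NF-Y factors, cathepsins, regulators such as Cd83 and March1, and factors that control Ciita. In the 4 B cell comparisons, the 4 T cell comparisons of genotype and node, and the split by Cd79a, 0 of the 12 to 26 tested were called, with 0 to 3 at an unadjusted p under 0.05. In CD8 against Cd4 T cells, 5 of 13 were called beside the 15.7% background. Ctsd, an endosomal protease (0.57, edgeR adjusted p = 2.01e-07), Ifngr1, a chain of the interferon gamma receptor (0.70, adjusted p = 1.39e-07), and Irf1, a factor that interferon gamma induces (0.30, adjusted p = 0.0103), were higher. Ctsb, another endosomal protease (-0.68, adjusted p = 4.43e-07), and Ctss, the protease that trims Cd74 (-0.27, adjusted p = 0.00539), were lower.

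By level, these genes followed class II to different degrees. Pax5, which sets B cell identity, was at 183 ± 25.5 CPM in B cells (SD, n = 7) and at 0.111 to 1.698 CPM in the 5 CD4 and CD8 T cell types. Cd83, which holds class II at the surface, was at 488 ± 41.3 CPM in B cells and 103 ± 50.5 CPM in CD4+ Mem T cells, the type with the highest Cd74 among T cells. Ctss was at 619 ± 29.7 CPM in B cells and 806 ± 403 CPM in Myeloid cells (n = 4), but also at 344 ± 50.6 CPM in CD4+ Treg and 210 ± 8.09 CPM in CD4+ Naive T cells. Rfx5, a subunit of the RFX complex, was low, at 25.2 ± 3.02 CPM in B cells and 5.18 to 13.2 CPM in those T cell types. Sppl2a, which clears the last membrane stub of Cd74, was at 60.2 ± 11.4 CPM in B cells and 35.8 to 55.2 CPM in the same 5 types.

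The genes outside the list whose level was most like the summed class II level were Lmo2 (Pearson r = 0.956), Il4i1 (0.954), Wdfy4 (0.943), Ly86 (0.939) and H2-Eb2 (0.931). Likeness was measured on log2(CPM + 1) over 52 sums of a cell type in a mouse, among 7888 genes with at least 200 UMIs; sums of 1 mouse share its libraries, and the contrast of B cells with the rest dominates them. Lmo2 had 202 CPM in B cells, 49.6 in Myeloid cells and 0.315 in T cells without Cd79a. Among the 9 genes themselves r with the sum ran from 0.979 for Cd74 to 0.811 for H2-Oa and 0.602 for H2-Ob, the lowest of them.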

How the data were processed

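Counts of UMIs per cell and gene were used as the authors deposited them, with the deposited labels of well, mouse, node, genotype, cell type and CD4 subset. Build GRCm38 and the tools Seurat, Scanpy 1.7.0, bustools 0.40.0 and kallisto 0.46.1 were used per the submitters' processing notes. The sources used here do not describe cell filters, doublet removal, hashtag assignment or cell type naming, and no doublet caller was run. Scaled matrices were not used. Uterine cells were not analysed here, and 1 listed B cell marker is not reported here.

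UMIs were summed per mouse and node (at least 20 cells) and tested over all genes with edgeR 4.0.16 (R 4.3.3): filterByExpr, TMM, the quasi-likelihood test, pool as a term for genotype and mouse as a block for nodes and splits, Benjamini-Hochberg adjusted p below 0.05. The split by Cd79a used mice with at least 5 such cells, both nodes summed. SEs were obtained by dividing the absolute log2 difference by the root of F. Replicates are mice, so p-values are meant to measure the spread between mice. Those of edgeR for the Cd79a split do not: Cd74 ran from 15.3 to 3465 CPM in T cells with Cd79a, with an edgeR SE of 0.17. DESeq2 1.42.0, no low-count filter, each mouse left out, other terms and other cell selections were alternatives. The tests were checked on simulated counts with a common dispersion and no mouse effect, so the check does not bear on the p-values of the Cd79a split. Levels by type used mice with at least 10 cells. Shares used Wilson intervals (95%, Python 3.11.15, scipy 1.17.1).

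The 9 genes and all lists were chosen with earlier results of these data known. Named were all 9 genes, up to 4 pathway genes past the threshold per comparison (5 in CD8 against Cd4 T cells, of which Irf1 was added after its value was seen), Sppl2a, Ctss, Rfx5, Cd83 and Pax5 by level (Ifi30 not analysed here), the B cell reference genes, and the 5 genes most like the summed level. Sums for the genotype and node tests held 20 to 722 cells and 55056 to 2470273 UMIs, and this depth limits genes of low count, chiefly Ciita in T cells. Positions came from GENCODE vM21 and promoters from RefSeq.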

Additional observations from a re-analysis of the deposited data

Results flagged for a closer look

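Among 36 groups of 4 Aire-DTR mice (9 genes, 2 nodes, B cells and T cells without Cd79a), 1 held a mouse that stood far from the others, and chance gives about 1 in 20. H2-Eb1 in B cells of the udLN of Aire-DTR mouse 8 was 5066 CPM (1724 UMIs), and the other 3 mice lay between 5662 and 5741 CPM.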

How the results depend on the processing

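Over 124 alternatives to the 8 comparisons of genotype, node and their interaction, 2 called a class II gene: Cd74 in T cells without Cd79a, udLN against brLN, was called with no low-count filter (1 gene, log2 difference -0.431, edgeR adjusted p = 0.0417) and without mouse 1 (1 gene, -0.638), with leave-one-out values from -0.638 to -0.291. All 11 alternatives to CD8 against Cd4 T cells called the 3 genes. T cells with against without Cd79a gave 2 genes, 1 with DESeq2 (Cd74 at 2.39), 5 with no low-count filter, 1 to 3 with a mouse left out (1 without mouse 36, where H2-Aa was not tested, and 3 without mouse 1) and 0 without the T cells of 10 or more class II UMIs (Cd74 at 0.107), the last an alternative chosen after seeing the data, as were the CD4 and CD8 T cells alone, B cells without Cd3 UMIs and repeated rows kept. Small Cd74 differences changed sign: in B cells, genotype in brLN ran from -0.0767 to 0.0177 with a mouse left out (0.000823 without mouse 36, 0.0152 without mouse 8) and was 0.019 in udLN with no low-count filter, and node ran from -0.0435 to 0.00627 (0.000528 without mouse 36, 0.00172 without mouse 6). With Cd79a cells kept, Cd74 in T cells was 0.649 for genotype in udLN, 0.189 for node and 0.239 for the interaction, which ran from -1.04 to 0.27 with a mouse left out. The cause was not tested. Thinned to 500 UMIs, Cd74 was seen in 3.20% of T cells and H2-DMa in 29.6% of B cells and 3.50% of T cells, fewer UMIs by construction. Counts over all genes moved by over 1.5 times: 4 (0 to 20), 0 (0 to 40), 2 (0 to 45) and 1 (0 to 51) in B cells for brLN, udLN, node and interaction, 3 (0 to 24), 2 (1 to 12), 32 (7 to 67) and 4 (0 to 8) in T cells, 6 (2 to 157) for the Cd79a split and 936 (502 to 1213) for CD8 against Cd4. By the replicate numbers of the labels, no paired analysis was possible because they belong to wells, each of which mixes mice; the node, Cd79a and coreceptor comparisons were paired by mouse. A split at 2 or more Cd79a UMIs was not run: it left 12 cells, at most 3 in 1 mouse against 5 needed.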
